A study of Homo sapiens with 6 samples.

Results

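The transcripts of 46 genes of DNA replication were examined in Ewing sarcoma cells treated with THZ1. They were chosen by symbol, as the subunits and loading factors of the replication origin and fork, and each of the 46 was found among the 27420 protein-coding and lincRNA genes of the expression table. The rule uses no measured value, but the list was chosen with earlier results of these data known. The samples were 6 RNA-seq libraries of 2 established Ewing sarcoma cell lines, A673 and SKNMC, harvested after 6 h in 50 nM THZ1, 200 nM THZ1 or the vehicle DMSO. THZ1 is a covalent inhibitor of CDK7, a kinase that acts on RNA polymerase II at the start of transcription and that also activates the cell-cycle kinases. The labels give no genotype beyond the line and no co-treatment, so the libraries of a line are labelled as differing in the drug and its dose. Each of the 6 conditions holds 1 library, so no spread between replicates of a condition exists and every difference within a line compares 1 library with another. The test available was a limma fit over both lines with the line as a block. Its error joins the disagreement between the lines with a spread borrowed from all genes.

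Replication starts where the origin recognition complex (ORC) sits on DNA. CDC6 and CDT1 load the MCM2-7 helicase there, geminin blocks CDT1 after S phase begins, and the kinase CDC7 with its partner DBF4, together with the cyclin-dependent kinases, then allows CDC45 and GINS to join and switch the helicase on. At the moving fork polymerase alpha-primase lays down primers, polymerases delta and epsilon extend them on the clamp PCNA, RPA covers the single strands, ribonucleotide reductase supplies the deoxynucleotides, and FEN1 and LIG1 join the lagging-strand fragments. Many of these genes are known targets of the E2F factors, which switch them on as cells enter S phase.

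Expression is given in FPKM, fragments per kilobase of transcript scaled to the mapped fragments of the library, which is per length and can be compared between genes, and which measures a share of the library rather than an amount per cell. In such bulk samples fewer cells that express a gene and less of its RNA per cell cannot be told apart. The labelled identity was checked against marker genes. The Ewing sarcoma genes CD99, FLI1, NKX2-2, NR0B1, PRKCB and STEAP1 lay between 3.60 and 763 FPKM in the 6 libraries. Of 7 marker genes of epithelial, blood, muscle or liver cells that the table lists, 6 were below 1 FPKM in every library. The exception was PTPRC, the leukocyte phosphatase CD45, at 10.2, 7.90 and 13.1 FPKM in SKNMC with DMSO, 50 nM and 200 nM and at most 0.03 FPKM in A673. The summed level of these 7 markers ran from 0.043 to 14.0 FPKM, and its part in the results was not tested. Total FPKM of the listed genes was within 97.8% to 101% of the DMSO library of the line in all 4 THZ1 libraries, and read depth is unknown because the table holds no counts.

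After THZ1 some replication genes were several-fold lower, others stayed near their DMSO level, and none was 2-fold higher in any of the 4 THZ1 libraries. A change is the log2 ratio of FPKM + 1 between a THZ1 library and the DMSO library of its line, a gene was active when its DMSO library held over 1 FPKM, and it was counted as fallen or risen at a 2-fold difference. Adding 1 understates the change of low genes. All 46 genes were active in both lines. In A673 at 50 nM, 10 of the 46 (21.7%) fell, beside 15.9% of the 11077 active genes, and 0 rose, beside 0.343%. A673 at 200 nM had 16 (34.8%) lower, beside 25.3%, and 0 higher, beside 0.126%. For SKNMC the 50 nM library had 9 (19.6%) lower, beside 15.8% of 11896 active genes, and 0 higher, beside 0.471%. The 200 nM library of SKNMC had 19 (41.3%) lower, beside 27.3%, and 0 higher, beside 0.462%. The share of replication genes that fell was above the background in each library, by the least in SKNMC at 50 nM and by the most in SKNMC at 200 nM. With 0.1 added in place of 1 the shares at 50 nM were 21.7% beside 21.6% in A673 and 21.7% beside 22.5% in SKNMC, so at that dose they no longer stood apart from the background. At a 1.5-fold threshold the A673 share at 50 nM was below the background, 28.3% beside 31.8%. Those of the other libraries stayed above it.

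Over the 46 genes the median log2 change was -0.33 in A673 and -0.39 in SKNMC at 50 nM, beside -0.27 and -0.32 over all active genes. At 200 nM it was -0.27 in A673, beside -0.40 over all active genes, and -0.81 in SKNMC, beside -0.55. So at the higher dose the median replication gene was 0.13 above the median active gene in A673 and 0.26 below it in SKNMC. The A673 value changed sign, to -0.16, when genes under 1 FPKM were kept in the comparison. In A673 at 200 nM no member lay between MCM3 at -0.74 and RFC2 at -0.36. The 75th-percentile scaling of each library moved the median of all genes by 0.22 to 0.48 upwards in the 4 comparisons and turned the replication genes' median at 200 nM in A673 to 0.10, while scaling to the ribosomal protein genes moved it by 0.22 to 0.45 downwards and left 0 of the 46 above DMSO in any of the 4. Signs of changes near 0 therefore depend on the scaling. The difference of -0.26 from the other genes in SKNMC at 200 nM also moved, to -0.18 under the 75th-percentile scaling. Under the 75th-percentile scaling the calls of POLD3 and RFC4 at 50 nM and of FEN1, ORC1, POLA2, PRIM1 and RFC4 at 200 nM were lost in A673, and those of CDT1 and ORC5 at 50 nM and of CDT1, GMNN, MCM3, ORC1, ORC2, RFC1, RFC2 and RFC4 at 200 nM in SKNMC. The scaling to ribosomal protein genes and the common sum of FPKM lost no call.

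Across both lines, a limma fit of log2(FPKM + 1) with the cell line as a block was run over the 10574 genes active in both, at a Benjamini-Hochberg adjusted p of 0.05. It has 2 residual degrees of freedom, beside 9.48 prior ones borrowed from the spread over all genes, and was added after the data were seen. At 50 nM 21 of the 46 replication genes (45.7%) passed as lower, beside 38.5% of all genes tested, and 0 as higher, beside 5.12%. At 200 nM 26 (56.5%) passed as lower, beside 52.7%, and 0 as higher, beside 6.08%. The lower shares were thus not far from those of all genes. The 8 genes 2-fold lower in both lines at 50 nM and the 16 at 200 nM were all among those that passed. GINS1 had the lowest fitted log2 change at 50 nM, -2.42 (SE 0.176, limma adjusted p = 9.09e-06), and DBF4 had 0.11 at 50 nM (adjusted p = 0.589) and -1.83 at 200 nM (SE 0.157, adjusted p = 3.61e-06). MCM3, under 2-fold in 3 of the 4 libraries, passed at both doses, with -0.85 (adjusted p = 0.000436) and -0.93 (adjusted p = 0.000124). MCM2 had 0.14 and 0.08 (SE 0.116, adjusted p = 0.346 and 0.592), which missed the threshold and does not show that its level was unaltered. Leaving out the 50 nM library of A673, that of SKNMC or the DMSO library of SKNMC lowered the count at 50 nM. It was lowered among the members and among all genes tested, so the count of 21 depends on single libraries. Without the DMSO library of SKNMC the share of the members was below that of all genes tested. Under the 75th-percentile scaling 13 (28.3%) passed as lower at 50 nM, beside 25.2% of genes tested, and 6 (13.0%) as higher, beside 17.8%. At 200 nM 19 (41.3%) then passed as lower, beside 32.0%, and 11 (23.9%) as higher, beside 24.7%. The absence of higher calls thus holds for the deposited scale and not for that one.

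**Figure D1:**
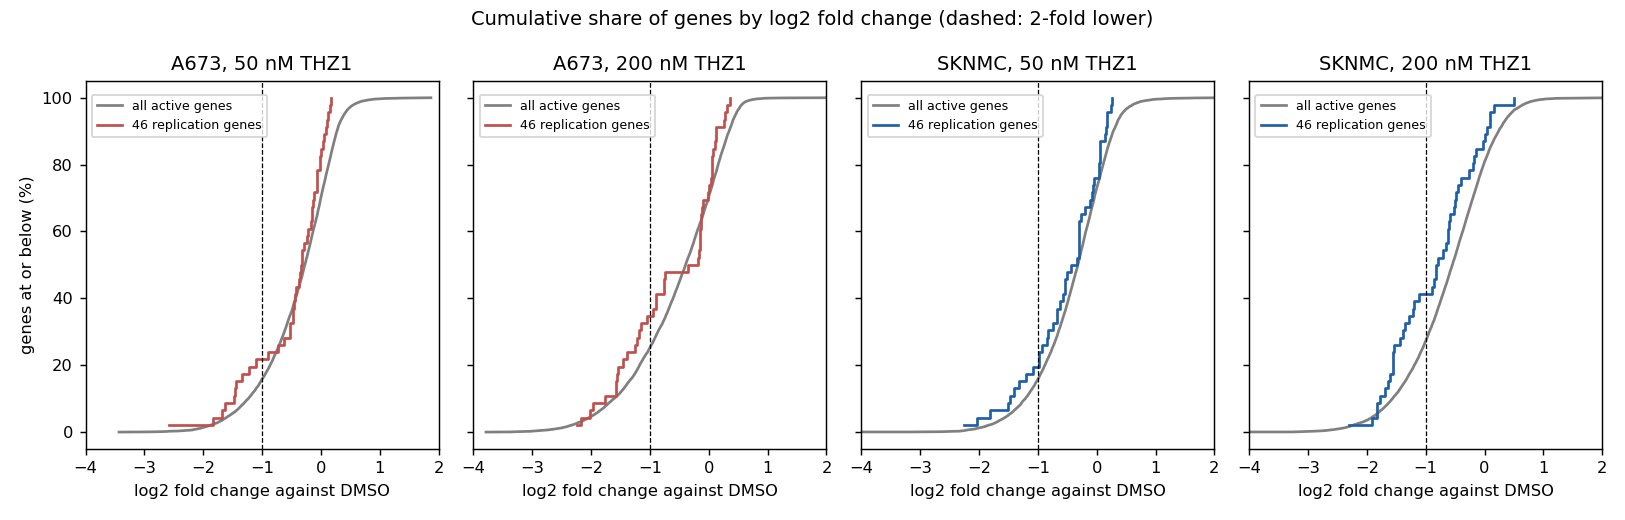
Cumulative share of genes (y axis, percent) at or below each log2 fold change of FPKM + 1 against DMSO (x axis), for the 46 replication genes (coloured steps) and all active genes (grey), in each of the 4 THZ1 libraries. At the dashed 2-fold line the coloured steps stand at 21.7%, 34.8%, 19.6% and 41.3%, above the grey curves at 15.9%, 25.3%, 15.8% and 27.3%.

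**Figure D2:**
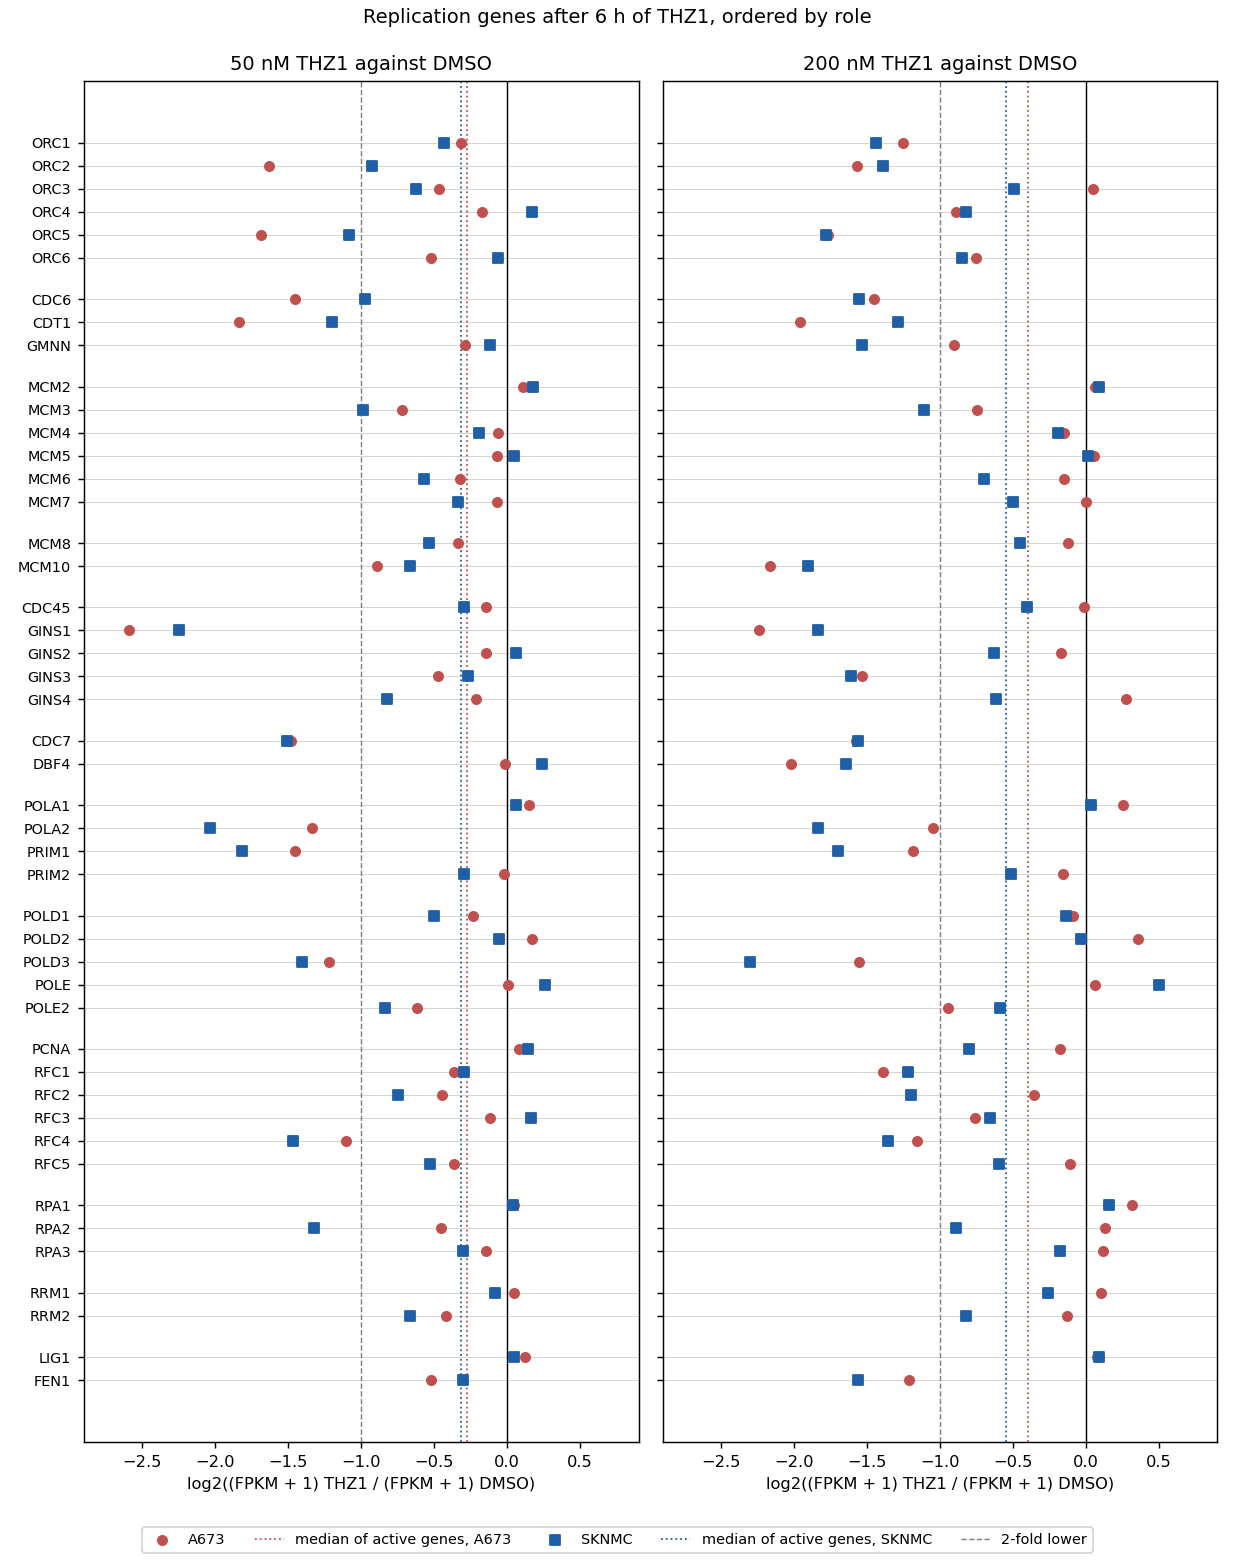
Log2 fold change of FPKM + 1 against DMSO (x axis) of each replication gene, grouped by role from top to bottom, at 50 nM (left) and 200 nM (right) THZ1, with circles for A673, squares for SKNMC, dotted lines at the median of all active genes and a dashed line at 2-fold lower. Each point is 1 library against 1 DMSO library. GINS1 lay at -2.59 and -2.25 at 50 nM, while MCM2, MCM5 and LIG1 lay between -0.07 and 0.17 in all 4.

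Because these genes are known for shared control at their promoters, the sequence before their start was read from RefSeq (GRCh38.p14, a later build than the hg19 of the expression files) for the 40 members with an entry. MCM4, MCM5, GINS4, POLD3, RPA2 and RPA3 had no entry. Each window ran from 250 bases before to 50 bases after the start, and it was searched on both strands for the E2F words TTTCCCGC, TTTCGCGC, TTTGCCGC and TTTGGCGC, for the CHR word TTTGAA and for CCAAT. No word of one motif holds a word of another, but an E2F word on one strand can overlap one on the other. An E2F word was present in 18 of the 40 windows (45.0%), beside 5.17% of the 11862 windows of active genes and 3.31% of all 35116. CCAAT was in 23 (57.5%), beside 35.1% and 34.6%, and the CHR word in 2 (5.00%), beside 10.4% and 15.2%. A match describes letters and shows no binding.

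The 150 bases before the start are shown, 5′ to 3′ along the gene with the E2F word in capitals. The genes shown were picked from those with such a word in this stretch, and windows without one are not shown. POLA1 and POLA2 encode partners in 1 enzyme, and POLA1 held its level while POLA2 fell. CDT1 fell at both doses and LIG1 stayed within 1.5-fold of DMSO. PCNA was the most abundant member with DMSO, and POLE had the highest change of all members in SKNMC. The windows are chrX:24693768-24693917 on the plus strand for POLA1, chr11:65261812-65261961 on the plus strand for POLA2, chr16:88803639-88803788 on the plus strand for CDT1, chr19:48170345-48170494 on the minus strand for LIG1, chr20:5126623-5126772 on the minus strand for PCNA and chr12:132687343-132687492 on the minus strand for POLE.
POLA1: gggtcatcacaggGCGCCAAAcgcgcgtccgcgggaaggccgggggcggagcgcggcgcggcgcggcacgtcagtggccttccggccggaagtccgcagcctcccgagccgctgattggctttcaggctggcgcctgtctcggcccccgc
POLA2: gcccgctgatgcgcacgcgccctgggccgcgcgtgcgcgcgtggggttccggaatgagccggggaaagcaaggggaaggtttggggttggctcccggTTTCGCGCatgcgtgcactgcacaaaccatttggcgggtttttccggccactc
CDT1: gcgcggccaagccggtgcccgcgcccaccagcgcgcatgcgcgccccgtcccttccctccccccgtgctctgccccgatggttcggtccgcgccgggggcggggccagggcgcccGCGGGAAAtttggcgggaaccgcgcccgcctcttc
LIG1: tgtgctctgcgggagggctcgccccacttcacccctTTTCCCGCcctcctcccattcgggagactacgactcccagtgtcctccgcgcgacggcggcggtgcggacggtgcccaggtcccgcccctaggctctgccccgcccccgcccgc
PCNA: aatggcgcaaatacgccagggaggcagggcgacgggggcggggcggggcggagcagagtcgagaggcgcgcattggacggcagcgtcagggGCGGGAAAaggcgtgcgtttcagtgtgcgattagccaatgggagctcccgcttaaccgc
POLE: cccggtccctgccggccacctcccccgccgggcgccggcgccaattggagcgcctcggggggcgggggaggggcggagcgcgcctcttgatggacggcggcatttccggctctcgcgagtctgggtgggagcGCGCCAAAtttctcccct
CDT1 and PCNA carry the same word, GCGGGAAA, the reverse complement of TTTCCCGC, which is the word of LIG1. POLA1 and POLE share GCGCCAAA, the reverse complement of TTTGGCGC, and POLA2 has TTTCGCGC. An E2F word stood in the window of 3 of the 7 genes matched that fell at 50 nM in both lines (POLA2, CDT1 and GINS1), 1 of the 6 that fell in both lines at 200 nM alone (GINS3) and 6 of the 12 matched that stayed within 1.5-fold in all 4 libraries (MCM2, MCM7, MCM8, POLE, POLA1 and LIG1). Genes with the word were thus found among those that fell and those that held.

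Among the 6 subunits of ORC, ORC5 and ORC2 were lowest against DMSO at 50 nM and ORC1 followed at 200 nM. ORC5 had 20.1, 5.57 and 5.21 FPKM in A673 with DMSO, 50 nM and 200 nM, and 23.3, 10.4 and 6.07 FPKM in SKNMC. Every THZ1 library lay below both DMSO libraries, with log2 changes of -1.69 and -1.77 in A673 and -1.08 and -1.78 in SKNMC. ORC2 had 11.0, 2.85 and 3.03 FPKM in A673 and 16.2, 8.04 and 5.53 FPKM in SKNMC. It passed 2-fold at both doses in A673 (-1.63 and -1.57) and at 200 nM in SKNMC (-0.93 and -1.39). ORC1, an ATPase of the complex, had 23.3, 18.5 and 9.16 FPKM in A673 and 9.53, 6.79 and 2.89 FPKM in SKNMC. It passed 2-fold at 200 nM alone, at -1.26 and -1.44, after -0.32 and -0.44 at 50 nM. The other subunits stayed under 2-fold in all 4 libraries: ORC3 between -0.62 and 0.04, ORC4 between -0.89 and 0.17 and ORC6 between -0.85 and -0.06. Summed over the 6 subunits, FPKM stood at 66.0% and 55.3% of DMSO in A673 and at 75.8% and 46.6% in SKNMC. In A673 the highest subunit, ORC6, was 4.90 times the lowest, ORC2, with DMSO and 13.0 times at 50 nM.

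Both factors that load the helicase fell. CDT1 had 40.5, 10.6 and 9.65 FPKM in A673 and 15.2, 6.04 and 5.63 FPKM in SKNMC, with log2 changes of -1.84, -1.96, -1.20 and -1.29. CDC6 had 36.1, 12.6 and 12.6 FPKM in A673 and 32.6, 16.1 and 10.4 FPKM in SKNMC, with changes of -1.45 at either dose in A673 and of -0.97 and -1.55 in SKNMC. For CDC6 the 50 nM library of A673 was as low as the 200 nM library. GMNN, which encodes geminin, had 66.3, 53.9 and 35.0 FPKM in A673 and 41.7, 38.4 and 13.7 FPKM in SKNMC. Its changes were -0.29 and -0.12 at 50 nM and -0.90 and -1.53 at 200 nM, so of the 4 libraries it passed 2-fold in SKNMC at 200 nM alone.

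Of the MCM2-7 helicase genes 1 of 6 passed 2-fold, in 1 of the 4 THZ1 libraries. MCM2 had 96.8, 105 and 101 FPKM in A673 and 88.6, 100.04 and 94.4 FPKM in SKNMC, within 0.17 of DMSO on the log2 scale. MCM5 had 139.6, 133 and 145 FPKM in A673 and 73.1, 75.5 and 73.9 FPKM in SKNMC. MCM4 stayed between 87.3 and 99.9 FPKM in all 6 libraries. These 3 subunits lay within 0.19 of DMSO in each line. MCM7, the highest of the 6 in every library, had 195, 185 and 195 FPKM in A673 and 149, 117 and 105 FPKM in SKNMC, where its changes were -0.34 and -0.50. MCM6 lay at -0.32 and -0.15 in A673 and at -0.57 and -0.70 in SKNMC. MCM3 stood apart from its partners. It had 97.8, 58.9 and 58.0 FPKM in A673 and 91.9, 45.9 and 41.9 FPKM in SKNMC, with changes of -0.72, -0.74, -0.98 and -1.11. MCM3 was thus the single subunit of the 6 to pass 2-fold, in SKNMC at 200 nM, and it was level with MCM2 and MCM4 with DMSO but below both in each THZ1 library. Summed FPKM of the 6 stood at 90.5% and 93.3% of DMSO in A673 and at 83.1% and 78.2% in SKNMC.

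The other 2 MCM genes went separate ways. MCM8, a helicase relative used in recombination, had 24.2, 19.0 and 22.1 FPKM in A673 and 20.4, 13.7 and 14.6 FPKM in SKNMC, with changes between -0.53 and -0.13. MCM10, which helps to start the assembled helicase, had 27.4, 14.3 and 5.32 FPKM in A673 and 6.42, 3.67 and 0.98 FPKM in SKNMC. It was lower at each dose step, with -0.89 and -0.67 at 50 nM and -2.17 and -1.91 at 200 nM. Its 0.98 FPKM in SKNMC at 200 nM was the lowest value of any member in any library.

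GINS has 4 subunits, and each had its own course. GINS1 had 33.6, 4.75 and 6.31 FPKM in A673 and 29.4, 5.40 and 7.53 FPKM in SKNMC, and its changes of -2.59 and -2.25 at 50 nM were the lowest of the 46 in both lines. At 200 nM it stood at -2.24 and -1.83, slightly higher than at 50 nM. GINS3 had 14.3, 10.0 and 4.27 FPKM in A673 and 7.29, 5.88 and 1.71 FPKM in SKNMC. In contrast to GINS1 it lay at -0.47 and -0.27 at 50 nM and passed 2-fold at 200 nM, at -1.54 and -1.61. GINS2 had 32.2, 28.9 and 28.4 FPKM in A673 and 9.62, 10.1 and 5.87 FPKM in SKNMC, and GINS4 had 14.9, 12.8 and 18.3 FPKM in A673 and 14.1, 7.52 and 8.83 FPKM in SKNMC. Neither passed 2-fold in any library. CDC45, which joins GINS and MCM2-7 in the active helicase, had 51.3, 46.3 and 50.8 FPKM in A673 and 28.1, 22.6 and 21.0 FPKM in SKNMC, with changes between -0.41 and -0.01. The highest of these 5 genes was 3.59 times the lowest in A673 with DMSO and 11.9 times at 200 nM, and in SKNMC 4.03 times and 12.2 times.

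CDC7 and DBF4, catalytic and regulatory subunit of 1 kinase, fell at different doses. CDC7 had 17.8, 5.74 and 5.31 FPKM in A673 and 24.3, 7.88 and 7.56 FPKM in SKNMC, which put it at -1.48 and -1.51 at 50 nM and at -1.58 and -1.56 at 200 nM. DBF4 had 33.3, 32.9 and 7.46 FPKM in A673 and 34.9, 41.4 and 10.5 FPKM in SKNMC. At 50 nM it lay at -0.01 and 0.24, and at 200 nM at -2.02 and -1.64. The step of DBF4 from 50 to 200 nM, -2.00 in A673 and -1.88 in SKNMC, was the lowest of the 46 genes in both lines, while the step of CDC7 was -0.09 and -0.05. DBF4 was 5.74 times CDC7 at 50 nM in A673, against 1.87 times with DMSO and 1.40 times at 200 nM.

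Polymerase alpha-primase split into pairs. POLA2, the regulatory B subunit, had 54.7, 21.1 and 25.9 FPKM in A673 and 35.4, 7.87 and 9.21 FPKM in SKNMC, with changes of -1.33, -1.05, -2.04 and -1.83. PRIM1, the catalytic primase, had 41.8, 14.7 and 17.8 FPKM in A673 and 20.6, 5.14 and 5.64 FPKM in SKNMC, with changes of -1.45, -1.19, -1.81 and -1.70. Both fell in all 4 THZ1 libraries and were slightly higher at 200 nM than at 50 nM. POLA1, the catalytic polymerase, had 12.8, 14.3 and 15.5 FPKM in A673 and 23.5, 24.5 and 24.0 FPKM in SKNMC. PRIM2, the large primase subunit, had 22.1, 21.8 and 19.8 FPKM in A673 and 14.5, 11.6 and 9.86 FPKM in SKNMC. POLA1 stayed between 0.03 and 0.25 and PRIM2 between -0.52 and -0.02 on the log2 scale. POLA2 was the highest of the 4 with DMSO in both lines, and in SKNMC both THZ1 libraries had POLA1 highest and PRIM1 lowest. PRIM1 shares 34 bases on its strand with NACA, a gene that stayed between 649 and 957 FPKM, so reads in that stretch cannot be assigned to PRIM1 with certainty.

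**Figure D3:**
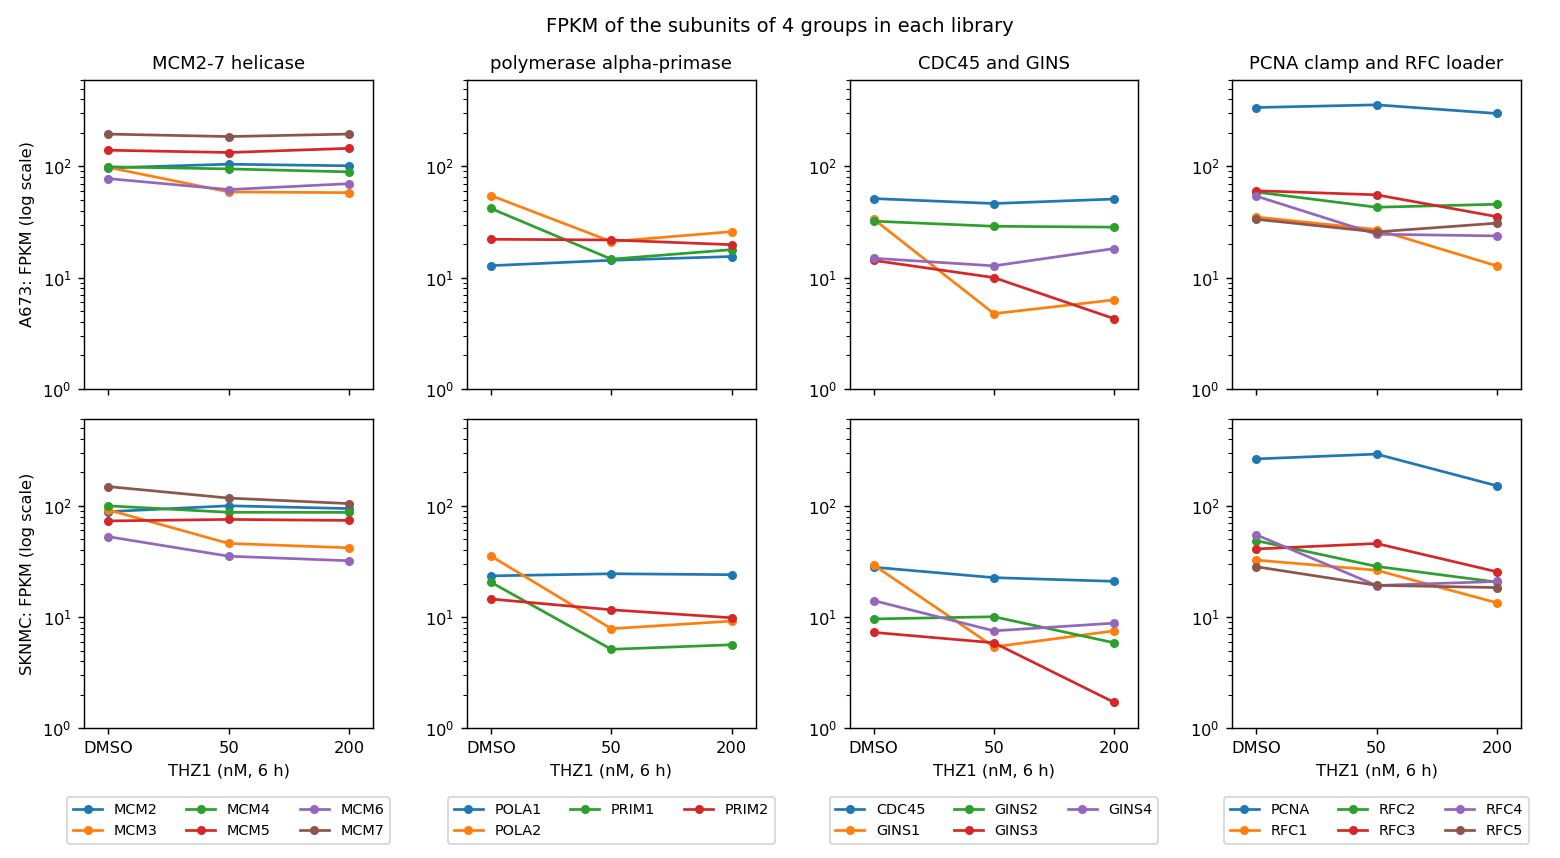
FPKM (log axis) of each subunit of 4 groups with DMSO, 50 nM and 200 nM THZ1 (x axis), in A673 (top) and SKNMC (bottom), with 1 point per library and lines joining the points of a gene. Within the helicase MCM2, MCM4 and MCM5 run nearly level, MCM3 drops in both lines, and MCM6 and MCM7 decline in SKNMC. POLA2, PRIM1, GINS1 and RFC4 drop at 50 nM, and GINS3 and RFC1 are lowest at 200 nM.

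Of the polymerase delta and epsilon genes, 1 of 5 fell. POLD3, an accessory subunit of polymerase delta, had 20.0, 8.03 and 6.17 FPKM in A673 and 23.7, 8.29 and 4.01 FPKM in SKNMC, with changes of -1.22, -1.55, -1.41 and -2.30. The last was the lowest change of any member in SKNMC at 200 nM. POLD2, the small subunit of the same enzyme and the most abundant member after PCNA in SKNMC with DMSO, had 159, 179 and 204 FPKM in A673 and 177, 170.1 and 173 FPKM in SKNMC. POLD1, its catalytic subunit, lay between -0.50 and -0.09 over the 4 libraries. POLE, the catalytic subunit of polymerase epsilon, had 31.1, 31.2 and 32.6 FPKM in A673 and 27.2, 32.8 and 39.0 FPKM in SKNMC. Its 0.50 in SKNMC at 200 nM was the highest change of the 46 there, under 2-fold on this scale and past 2-fold when libraries were scaled to their 75th percentile. POLE2 had 28.2, 18.0 and 14.1 FPKM in A673 and 11.0, 5.74 and 7.02 FPKM in SKNMC, and lay between -0.95 and -0.59.

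PCNA, the sliding clamp, was the most abundant of the 46 in 5 of the 6 libraries, with 338, 357 and 298 FPKM in A673 and 264, 292 and 151 FPKM in SKNMC. Its changes were 0.08 and 0.14 at 50 nM and -0.18 and -0.80 at 200 nM, so the line with the larger step at the higher dose was SKNMC and 2-fold was not reached. RFC4, a small subunit of the clamp loader, had 54.0, 24.6 and 23.7 FPKM in A673 and 54.9, 19.2 and 20.9 FPKM in SKNMC, and fell in all 4 THZ1 libraries (-1.11, -1.16, -1.47 and -1.35). RFC1, the large subunit, had 35.0, 27.0 and 12.7 FPKM in A673 and 32.5, 26.4 and 13.4 FPKM in SKNMC. It fell at 200 nM alone, at -1.39 and -1.22. RFC2 had 58.7, 42.9 and 45.6 FPKM in A673 and 48.6, 28.5 and 20.6 FPKM in SKNMC, and passed 2-fold in SKNMC at 200 nM (-1.20). RFC3 ranged from -0.76 to 0.16 and RFC5 from -0.60 to -0.11. The loader thus had 1 subunit that fell at 50 nM and 1 that fell at 200 nM in both lines, beside 2 that did not pass in any library.

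The 3 RPA genes, whose products coat single-stranded DNA, differed between the lines in 1 member. RPA2 had 68.4, 49.6 and 74.9 FPKM in A673 and 54.9, 21.3 and 29.2 FPKM in SKNMC, and it passed 2-fold in SKNMC at 50 nM (-1.32) and not at 200 nM (-0.89). In A673 its changes were -0.46 and 0.13. RPA1 stayed between 0.04 and 0.31 and RPA3 between -0.31 and 0.12. The gene body of RPA3 shares 77898 bases with RPA3-AS1 on the opposite strand, and since strand use in counting is not stated their reads cannot be told apart. RRM1, the large subunit of ribonucleotide reductase, had 105, 108 and 112 FPKM in A673 and 78.7, 74.1 and 65.6 FPKM in SKNMC. RRM2, its small subunit, had 226, 168 and 207 FPKM in A673 and 132, 82.9 and 74.5 FPKM in SKNMC, with changes of -0.42, -0.13, -0.67 and -0.82. Neither passed 2-fold.

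Of the genes that finish Okazaki fragments, FEN1 fell and LIG1 did not. FEN1, the flap endonuclease, had 78.7, 54.4 and 33.4 FPKM in A673 and 68.0, 54.8 and 22.4 FPKM in SKNMC, with -0.53 and -0.31 at 50 nM and -1.21 and -1.56 at 200 nM. LIG1, the ligase, had 40.9, 44.6 and 43.3 FPKM in A673 and 30.8, 31.9 and 32.8 FPKM in SKNMC, within 0.12 of DMSO in the 4 libraries. LIG1 was below FEN1 with DMSO and above it at 200 nM in both lines. FEN1 shares 4266 bases on its strand with FADS2, which had 242, 294 and 387 FPKM in A673 and 90.8, 61.6 and 81.4 FPKM in SKNMC, so how reads there were divided bears on FEN1 and is not stated. In all, 14 of the 46 members overlap another listed gene, 5 of them on the same strand and 11 on the opposite strand, with some on both.

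The 200 nM library can be set against the 50 nM library of its line without the DMSO library. In A673, 4 of the 46 (8.70%) were 2-fold lower at 200 nM than at 50 nM (MCM10, GINS3, DBF4 and RFC1), beside 7.44% of active genes, and 0 were higher, beside 0.117%. In SKNMC 5 (10.9%) were lower (GMNN, MCM10, GINS3, DBF4 and FEN1), beside 8.39%, and 0 were higher, beside 0.370%. These shares are near the background. MCM10, GINS3 and DBF4 were in both sets, and the step of ORC1 in SKNMC, at -0.999, was just short. Under the 75th-percentile scaling GINS3 and RFC1 in A673 and FEN1 in SKNMC were no longer past 2-fold. By the limma fit with the line as a block 12 of the 46 (26.1%) were lower at 200 nM than at 50 nM, beside 23.2% of genes tested, and 0 were higher, beside 3.37%. These 12 were ORC1, ORC4, ORC6, GMNN, MCM10, GINS3, DBF4, POLD3, PCNA, RFC1, RFC3 and FEN1. DBF4 had the lowest fitted step, -1.94 (SE 0.157, limma adjusted p = 3.34e-05), and that of CDC7 was -0.07 (adjusted p = 0.772). Without the 50 nM library of SKNMC fewer passed as lower, among the members and among all genes tested. The median step of the 46 was -0.01 in A673 and -0.12 in SKNMC, beside -0.02 and -0.14 over all active genes.

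Classes drawn from these courses, set after the values were seen, describe the group and carry no test. At 50 nM 8 genes fell in both lines (17.4%, beside 11.4% of the 10574 genes active in both): ORC5, CDT1, GINS1, CDC7, POLA2, PRIM1, POLD3 and RFC4. Their median step from 50 to 200 nM was -0.06 in A673 and 0.03 in SKNMC. Another 6 fell in both lines at 200 nM and in neither at 50 nM (13.0%, beside 8.17%): ORC1, MCM10, GINS3, DBF4, RFC1 and FEN1. Their median step was -1.05 in A673 and -1.25 in SKNMC, where a step below 0 is fixed by how the class was drawn. A further 15 stayed within 1.5-fold of DMSO in all 4 libraries (32.6%, beside 35.5%): MCM2, MCM4, MCM5, MCM7, MCM8, CDC45, POLA1, PRIM2, POLD1, POLD2, POLE, RPA1, RPA3, RRM1 and LIG1. The other 17 belonged to none of these classes. The genes that fell at 50 nM and those that fell at 200 nM alone came in part from the same complexes, with ORC5 and ORC1 in ORC, GINS1 and GINS3 in GINS, CDC7 and DBF4 in the kinase, and RFC4 and RFC1 in the clamp loader.

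**Figure D4:**
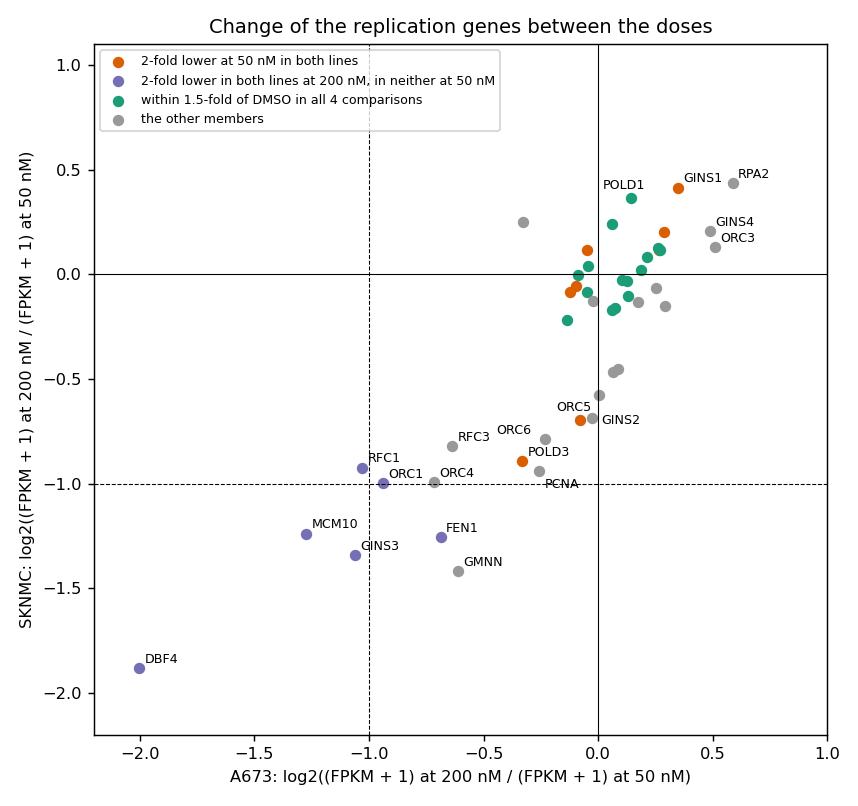
Log2 ratio of FPKM + 1 at 200 nM to 50 nM THZ1 for the 46 replication genes in A673 (x axis) and SKNMC (y axis), coloured by the classes described in the text, with dashed lines at 2-fold lower. The 6 genes that fell at 200 nM alone lie at the lower left, from -2.00 to -0.69 in A673 and from -1.88 to -0.92 in SKNMC. Values below 0 are fixed for them by how the class was drawn. The 8 that fell at 50 nM lie between -0.33 and 0.35 in A673 and between -0.89 and 0.41 in SKNMC.

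The lines were alike in which replication genes fell, as far as single libraries show. At 200 nM 16 genes fell in both lines (34.8%, beside 20.4% of genes active in both): the genes of the first 2 classes above, with ORC2 and CDC6. None fell in A673 alone, and GMNN, MCM3 and RFC2 fell in SKNMC alone. On the scale of FPKM + 1, at 50 nM ORC2 and CDC6 fell in A673 alone and RPA2 in SKNMC alone. The share of all genes that fell in 1 line alone was not counted. These genes therefore show nothing particular to the replication genes. In SKNMC at 50 nM ORC2 (-0.93), CDC6 (-0.97) and MCM3 (-0.98) stood close to the threshold. Without the added 1 their FPKM was 49.7%, 49.4% and 49.99% of DMSO, which is past 2-fold. Across the 46 genes the changes in the lines had a Spearman rho of 0.847 at 50 nM and 0.876 at 200 nM, beside 0.842 and 0.820 across all 10574 genes, so the likeness of the lines was of the same size for all genes. These rho values describe genes, which are not replicates.

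With DMSO the replication genes were well expressed. Their median was 40.7 FPKM in A673 and 31.7 FPKM in SKNMC, beside 14.1 and 13.5 FPKM over active genes, and they ran from ORC2 (11.0 FPKM) to PCNA (338 FPKM) in A673 and from MCM10 (6.42 FPKM) to PCNA (264 FPKM) in SKNMC. Between the vehicle-treated lines 6 of the 46 (13.0%) were 2-fold higher in A673, beside 8.42% of the 12399 genes active in either line, and 0 were 2-fold lower, beside 15%. The 6 were MCM10 (log2 difference of FPKM + 1, A673 over SKNMC, 1.94), GINS2 (1.64), ORC6 (1.44), CDT1 (1.36), POLE2 (1.28) and ORC1 (1.20). POLA1 had the lowest difference, -0.82. The median difference of the 46 was 0.27, beside -0.11 over all active genes. Together the 46 genes took 0.623%, 0.528% and 0.510% of all listed FPKM in A673 with DMSO, 50 nM and 200 nM, and 0.479%, 0.390% and 0.321% in SKNMC.

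**Figure D5:**
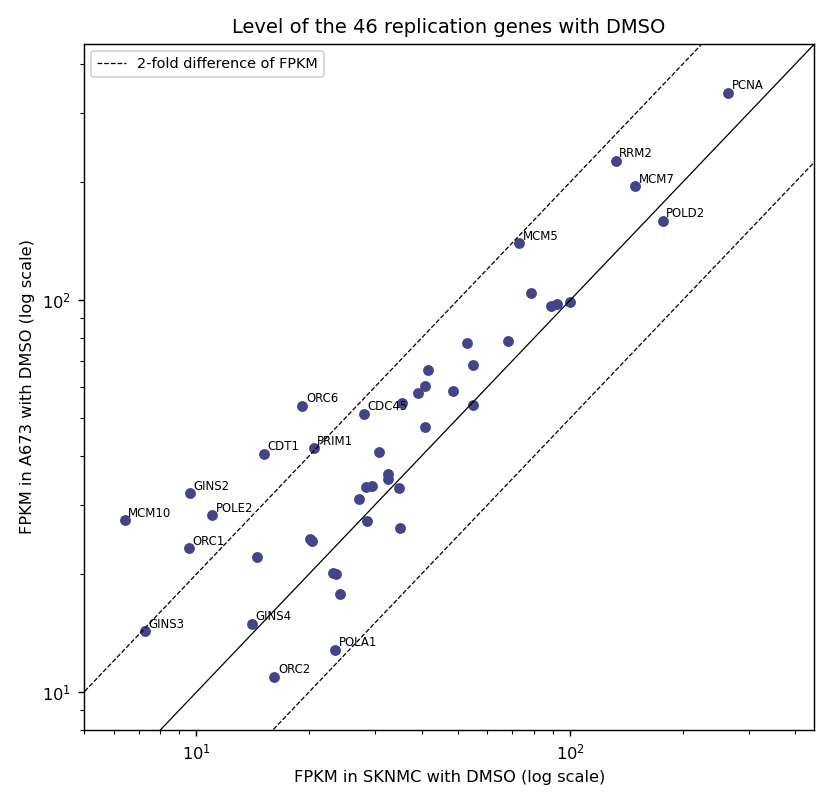
FPKM of the 46 replication genes with DMSO in SKNMC (x axis) and A673 (y axis), both on log axes, with a solid line at equal levels and dashed lines at 2-fold; 1 point per gene and 1 library per line, names given for genes far from the line of equal levels or at the ends of the range. MCM10, GINS2, ORC6, CDT1, POLE2 and ORC1 lie above the upper dashed line, PRIM1 lies on it (0.99 with 1 added to FPKM), and none lies below the lower one.

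Length and composition were compared with the changes. Transcript length and GC content came from the longest GENCODE 44 transcript of each gene on GRCh37. Exon number is the highest of any transcript of the gene, and span came from the coordinates deposited with the FPKM values. The 46 genes had a median span of 33.6 kb, beside 31.7 kb over active genes, a median of 15 exons, beside 9, and a transcript GC content of 45.3%, beside 47.5%. The log2 change and GC content had a Spearman rho across the 46 genes of 0.21 and 0.40 in A673 at 50 and 200 nM and of 0.10 and 0.37 in SKNMC, beside -0.08, 0.12, -0.12 and 0.07 across all active genes. The genes that stayed within 1.5-fold had a median GC content of 52.0%, those that fell at 50 nM 43.1% and those that fell at 200 nM alone 43.5%. With the number of exons it was 0.25, 0.24, 0.10 and 0.42, beside 0.16, 0.12, 0.17 and 0.18, and with the DMSO level in the other line 0.36, 0.36, 0.19 and 0.24, beside 0.25, 0.24, 0.18 and 0.13. With span the rho lay between -0.02 and 0.12. With transcript length it was 0.18, 0.09, 0.18 and 0.22, beside 0.04, -0.16, 0.09 and -0.03. These relations share libraries and are descriptions over genes. The part of composition, length, exon number and level in the measured changes was not tested.

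Genes around this core give a setting for the counts. Of 34 other replication genes, all active, 7 and 11 fell in A673 at 50 and 200 nM and 4 and 7 in SKNMC, and 0 rose. These shares were 20.6% and 32.4% in A673, above the backgrounds of 15.9% and 25.3%, and 11.8% and 20.6% in SKNMC, below those of 15.8% and 27.3%. Their median changes were -0.47, -0.51, -0.38 and -0.48, beside -0.27, -0.40, -0.32 and -0.55 over all active genes. The lowest by mean change were CHTF8 and CHAF1A, a clamp-loader partner and a subunit of the chromatin assembly factor, and CLSPN, the checkpoint adaptor claspin. CHTF8 had 47.7, 12.1 and 10.2 FPKM in A673 and 41.9, 9.92 and 8.14 FPKM in SKNMC. CHAF1A had 35.4, 8.03 and 8.43 FPKM in A673 and 19.5, 7.42 and 6.47 FPKM in SKNMC. These 3 fell at both doses in both lines. WDHD1 also fell at 50 nM in both, and TIPIN, TICRR, MCMBP and RIF1 at 200 nM in both. The highest by mean change were POLE4, RNASEH2C and CHTF18, between -0.06 and 0.49 in the 4 libraries.

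Of 18 genes of G1/S control 5 and 10 fell in A673 and 4 and 10 in SKNMC at 50 and 200 nM. Their medians were -0.68, -1.32, -0.68 and -1.16, beside -0.27, -0.40, -0.32 and -0.55 over all active genes. The shares at 50 nM were 27.8% in A673 and 22.2% in SKNMC, beside 15.9% and 15.8% of active genes. E2F5 had 25.3, 4.61 and 3.11 FPKM in A673 and 26.1, 4.88 and 3.65 FPKM in SKNMC, and E2F8, a repressor of the family, had 11.8, 2.16 and 1.18 FPKM in A673 and 6.92, 0.71 and 0.41 FPKM in SKNMC. With CCNE2, which encodes a cyclin E, they fell at both doses in both lines. E2F2, E2F3, E2F4, E2F6, E2F7, CCNE1 and CDC25A fell at 200 nM in both. RB1 and the E2F partners TFDP1 and TFDP2 were the highest by mean change, between -0.55 and 0.22.

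Of 24 mitotic genes 6 and 13 fell in A673 and 4 and 10 in SKNMC, with medians of -0.55, -1.12, -0.36 and -0.68. AURKA, a spindle kinase, had 61.2, 17.7 and 4.56 FPKM in A673 and 50.9, 21.7 and 7.92 FPKM in SKNMC. AURKA, CENPA and AURKB fell at both doses in both lines, CCNB1 at 50 nM in both, and KIF11, CCNA2, PLK1, TTK, CDK1 and KIF23 at 200 nM in both. PRC1, CCNB2 and BIRC5 were the highest by mean change, between -0.40 and 0.18. As a share of each list, at 200 nM 34.8% of the 46 core genes fell in A673, beside 32.4% of the other replication genes, 55.6% of the G1/S genes, 54.2% of the mitotic genes and 25.3% of all active genes. In SKNMC the shares were 41.3%, 20.6%, 55.6%, 41.7% and 27.3%. These lists were not tested against each other, and the cell-cycle distribution of the cultures was not measured in these files.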

How the data were processed

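Paired-end reads of 100 bp from TruSeq libraries were mapped by the authors to hg19 (GRCh37) with STAR, and FPKM values on the Ensembl 75 annotation were deposited. Their methods name StringTie as the estimator and the submitters' processing notes name Cufflinks. Versions and the use of strand are not given in the sources used here. Each column was treated as 1 library because the labels list 1 sample per condition, although the table is titled as holding averages. The authors' 4 deposited columns of log2 fold changes were not used.

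For each gene log2((FPKM + 1) / (FPKM + 1)) was computed (Python 3.11.15, pandas 2.3.3, numpy 2.4.6, scipy 1.17.1). Active genes had over 1 FPKM in the DMSO library of the line, and calls needed a 2-fold difference. Both lines together were fitted with limma 3.58.1 (R 4.3.3, line + dose, trended empirical Bayes), added after the data were seen, on the 10574 genes active in both. Beyond the line the labels name no separate cultures, so its p-values rest on the spread between 2 lines, moderated by that of all genes. Both calculations were tested on simulated data. FPKM holds no read counts. Among values between 0.05 and 0.5 FPKM the most frequent ratio between libraries held at most 1.15% of genes, so depth could not be recovered, and no error of a single value is known. The 46 members and the other lists were chosen with earlier results of these data known. All 46 members are described, and of the other lists the 3 lowest and the 3 highest by mean change and those past 2-fold in both lines at 1 dose. Alternatives were a pseudocount of 0.1, no filter, other scalings, protein-coding genes alone, a 1.5-fold threshold and, added after the data were seen, a background of genes within the members' range of FPKM.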

Additional observations from a re-analysis of the deposited data

Results flagged for a closer look

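POLD2 and RRM1 were picked out because their changes against DMSO had opposite signs in the lines at both doses. For POLD2 the log2 change in A673 minus that in SKNMC was 0.2214 at 50 nM and 0.3886 at 200 nM. For RRM1 the same differences were 0.1304 and 0.3634. Each rests on 1 library per condition, and the difference was not tested. The pattern was held by 464 (4.388%) of the 10574 genes active in both lines. POLD2 kept it under 0 of 3 other scalings of the libraries, and RRM1 kept it when libraries were scaled to a common sum and lost it under the other scalings.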

How the results depend on the processing

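The lines were paired as a replicate block in the limma fit, since each condition has 1 library per line; that fit gave 21, 26 and 12 members lower at 50 nM, at 200 nM and for 200 against 50 nM, and 0 higher. With 1 library left out, on 1 residual degree of freedom, the lower counts ran from 13 to 24, from 23 to 31 and from 5 to 14, the lowest for 200 against 50 nM without SKNMC at 50 nM, and at most 1 was higher. For 50 nM, 13 passed without SKNMC DMSO or without either 50 nM library. Leaving out a library also moved the share of all genes tested that passed as lower. For 50 nM that share too was reduced without SKNMC DMSO or without either 50 nM library. For 200 against 50 nM it was lowest without SKNMC at 50 nM. Those drops were thus not particular to the members. In some of these fits the prior degrees of freedom were infinite, so their p-values rest wholly on spread borrowed from all genes. Without the filter on low values 13, 23 and 8 passed as lower (28.3%, 50.0% and 17.4%, beside 20.0%, 33.3% and 7.96% of genes tested). With a pseudocount of 0.1 the counts were 20, 26 and 12 (43.5%, 56.5% and 26.1%, beside 37.8%, 52.5% and 23.9%). Scaled to ribosomal protein genes they were 31, 41 and 12 (67.4%, 89.1% and 26.1%, beside 57.4%, 77.7% and 29.9%). Scaled to the 75th percentile they were 13, 19 and 10 (28.3%, 41.3% and 21.7%, beside 25.2%, 32.0% and 16.8%). On that scale 6, 11 and 7 were higher (13.0%, 23.9% and 15.2%, beside 17.8%, 24.7% and 16.4%). With a common sum the lower counts stayed at 21, 26 and 12, beside 37.9%, 52.4% and 23.5% of genes tested, and 0 were higher. In the comparisons by fold, a common sum of FPKM, protein-coding genes alone, and, within a line alone, activity judged by the mean of the 3 libraries and a background of genes within the members' DMSO range, left every count within 1.5 times and every median within 0.1 of its reported value. With a pseudocount of 0.1 the members' shares lower at 50 nM met the background (21.7% beside 21.6% in A673 and 22.5% in SKNMC). In SKNMC 8 members (17.4%) were then 2-fold lower at 200 nM than at 50 nM, beside 13.0%. Without the filter on low values, the members' median minus that of all genes was -0.2228 and -0.156 in A673 at 50 and 200 nM, -0.231 and -0.5685 in SKNMC, and -0.0983 for 200 against 50 nM in SKNMC, and the value for A673 at 200 nM so changed sign, because genes listed near 0 then enter the background.

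Scaled to the 75th percentile of active genes, the members' median was -0.0835 and 0.1005 in A673, -0.1142 and -0.2452 in SKNMC, 0.1043 and 0.1492 for 200 against 50 nM in A673 and SKNMC, and 0.1046 for A673 against SKNMC with DMSO. In SKNMC at 200 nM 11 members (23.9%) were then lower, beside 13.0% of active genes, and 1 (2.17%) higher, beside 4.23%. In A673 2 (4.35%) were lower at 200 than at 50 nM, beside 5.79%. Scaled to ribosomal protein genes, the medians were -0.5572 and -0.6382 in A673, -0.7216 and -1.3612 in SKNMC, -0.1495 and -0.319 for 200 against 50 nM, and 0.7702 between the lines. In SKNMC 16 and 33 members were then lower at 50 and 200 nM (34.8% and 71.7%, beside 26.4% and 50.1%). For 200 against 50 nM in SKNMC 11 (23.9%) were lower, beside 11.8%. Between the lines 17 (37.0%) were higher in A673, beside 19.3%. Which scaling is nearer the amount per cell was not tested. At a 1.5-fold threshold 13 and 22 members were lower in A673 at 50 and 200 nM. Those shares were 28.3% and 47.8%, beside 31.8% and 41.1% of active genes. In SKNMC 18 and 30 were lower (39.1% and 65.2%), beside 33.5% and 48.0%. For 200 against 50 nM in A673 9 were lower (19.6%, beside 18.0%) and 1 higher (2.17%, beside 2.33%). In SKNMC 14 were lower (30.4%, beside 22.1%). Between the lines 1 was lower in A673 (2.17%, beside 26.6%) and 13 higher (28.3%, beside 17.6%). Unknown depth and 1 library per line and condition limit every value.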
